A study of Homo sapiens with 18 samples.

Results

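HepG2 is the label of the cells, an established line from a hepatocellular tumour. Of these cells, 3 arrays labelled si-hnRNPK, a label for an siRNA against hnRNP K, were compared with 3 arrays labelled NC, from cells given a scramble siRNA. None of these cells received a drug. The 6 arrays were chosen by their titles from a series of 18 Illumina bead arrays, and the whole of the measured transcriptome was described. Of the other 12 arrays, 3 were labelled si-hnRNPK with doxorubicin (DOX, a DNA-damaging drug, 400 nM for 16 hours), 3 si-PSTAR, for an siRNA against the long noncoding RNA PSTAR, with DOX, 3 si-PSTAR without DOX, and 3 scramble siRNA with DOX. The labels name no siRNA sequence, dose or time after transfection, and leave it unsaid if replicate arrays had a culture each. Each p-value therefore reflects how much replicate arrays scatter, and this scatter may be technical only.

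hnRNP K is an abundant RNA- and DNA-binding protein that prefers stretches rich in C. It shuttles between nucleus and cytoplasm and takes part in transcription, splicing, RNA stability and translation, and it is known as a cofactor of p53 after DNA damage. Several groups of genes described below make RNAs that do not end in a poly(A) tail. The U RNAs are the RNA cores of the spliceosome, 7SK RNA holds back the elongation factor P-TEFb, small nucleolar RNAs guide the chemical modification and cutting of ribosomal RNA, and replication-dependent histone RNAs end in a stem-loop. Their 3′ ends are cut by dedicated machines, the Integrator complex for the polymerase II U RNAs and a complex around U7 RNA and the stem-loop binding protein for histones.

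Every value below is a log2 intensity of 1 probe per gene, the probe with the highest mean over the 18 arrays, and a difference is si-hnRNPK minus scramble on the log2 scale. Of 19782 genes with a named probe, 12483 were bright enough to be tested, with a mean at or above 5.72, the median of all probes; lower levels are called dim here. A gene was called when the limma test, adjusted over all 12483 genes by Benjamini and Hochberg, gave an adjusted p under 0.05. The 18 arrays shared a median of 5.73. Across genes, 2 arrays of the si-hnRNPK group correlated at 0.997 or more, 2 scramble arrays at 0.9967 or more, and arrays of different groups at 0.9777 to 0.9784. The median SD of a gene was 0.08 among arrays labelled si-hnRNPK and 0.09 among scramble arrays.

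The targeted gene went against the label. HNRNPK stood at 11.66, 11.56 and 11.42 in the arrays labelled si-hnRNPK, against 11.70, 11.82 and 11.64 in scramble arrays. The groups overlapped, and the difference of -0.17 ± 0.10 (SE) was not called (adjusted p = 0.222). The other 3 HNRNPK probes differed by -0.23, -0.25 and -0.14, none of them past the threshold over all probes (adjusted p = 0.0994, 0.0763 and 0.455). Averaged over its 4 probes, HNRNPK differed by -0.20 and was called (adjusted p = 0.0203). With DOX the brightest probe stood at 11.36 in arrays labelled si-hnRNPK and 11.95 in scramble arrays, and the second brightest at 10.79 in arrays labelled si-hnRNPK and 10.77 in scramble arrays. The arrays labelled si-PSTAR were the low ones, with the brightest probe at 8.32 with DOX and 8.44 without. Of the other probes in these arrays without DOX, those at 8.23 and 6.27 stood below the 11.94 and 8.64 of scramble arrays, and the dimmest, at 6.09, was nearer to its scramble level of 6.57. The HNRNPK probes thus show a large loss in the arrays labelled si-PSTAR and little in those labelled si-hnRNPK. The titles of these 2 sets may have been exchanged, which the labels cannot settle. All directions below hold for the arrays as labelled, and none is a measured effect of lowering hnRNP K.

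The markers of hepatocytes were nearly absent. Of 18 markers with a probe, 13 were dim and 0 had a mean above 8. AFP, the fetal plasma protein that HepG2 cells are known to secrete, had a mean of 5.56, APOA1 of 5.49, APOB of 5.51 and TTR of 5.74. CPS1, the urea cycle enzyme of liver mitochondria, was bright, at 14.10 in arrays labelled si-hnRNPK and 13.93 in scramble arrays. VIM, an intermediate filament of mesenchymal cells and many cell lines, stood at 12.50 in arrays labelled si-hnRNPK and 12.85 in scramble arrays. The cells are therefore called by their label. Among markers of other cells, the summed intensity of 11 fibroblast markers lay at 9.81 to 9.87 log2 units in arrays labelled si-hnRNPK, against 10.58 to 10.69 in scramble arrays, with 6 markers bright enough to be tested and 5 dim. Of the 6, 4 fell and 0 rose: DCN by 1.58, COL3A1 by 1.42, COL1A1 by 0.50 and PDGFRB by 0.46. The part of such cells in the results was not tested. Sums of blood cell markers overlapped, at 9.23 to 9.38 in arrays labelled si-hnRNPK and 9.23 to 9.37 in scramble arrays. Sums of endothelial markers were 8.67 to 8.76 in arrays labelled si-hnRNPK, against 8.42 to 8.47 in scramble arrays.

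In all, 4153 genes were called, 33.3% of those tested. Of these, 2126 were higher in arrays labelled si-hnRNPK (17.0%) and 2027 lower (16.2%). Most differences were small, with a median size of 0.16 over all tested genes. A difference of at least 2-fold was seen in 345 called genes (2.76%), 157 of them higher (1.26%) and 188 lower (1.51%). All 3 arrays of one group lay above all 3 of the other in 50.5% of the genes tested. These shares are the background for the counts of each gene group below.

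**Figure D1:**
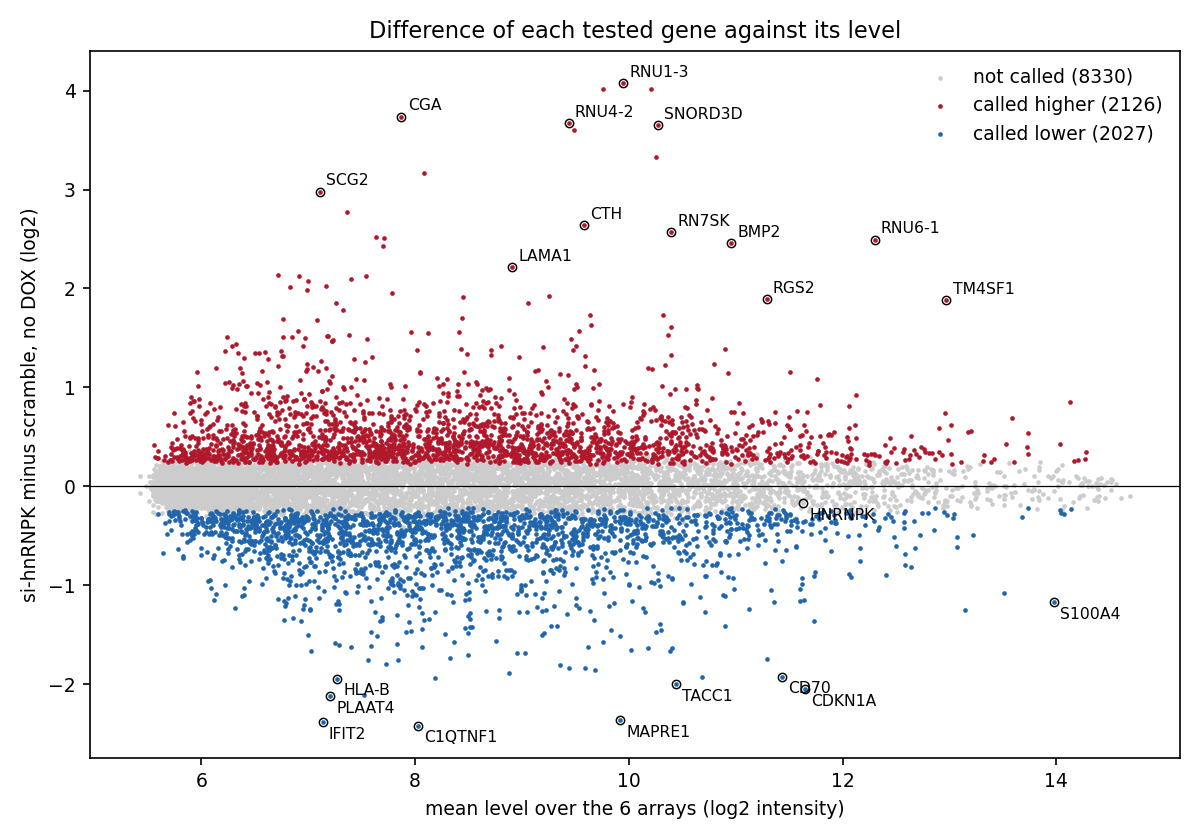
Each point is 1 of 12483 tested genes, with its mean level over the 6 untreated arrays on the horizontal axis (log2 intensity) and the si-hnRNPK minus scramble difference on the vertical axis (log2). The 2126 genes called higher are red, the 2027 called lower blue and the 8330 not called grey; small RNA genes and CGA reach the largest positive values, the largest negative value is -2.42, and HNRNPK lies at -0.17.

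The largest rises were those of spliceosomal and other small nuclear RNAs. Of 14 tested, 13 rose and 0 fell, with a median difference of 2.54, against 0.0028 over all genes. RNU1-3, a gene of U1, the RNA that recognises the 5′ splice site, stood at 11.89, 12.11 and 11.97 in arrays labelled si-hnRNPK, against 7.96, 7.87 and 7.90 in scramble arrays. The groups lay far apart, with a difference of 4.08 ± 0.09 (SE, adjusted p = 6.55e-22). The other U1 probes rose by 4.02 (RNVU1-7), 4.02 (RNVU1-18) and 3.33 (RNU1-1). RNU4-2, a gene of U4, which pairs with U6 before the spliceosome is activated, stood at 11.08, 11.37 and 11.36 in arrays labelled si-hnRNPK, against 7.54, 7.58 and 7.68 in scramble arrays. Its sister RNU4-1 rose by 2.78. RNU6-1, the U6 gene that RNA polymerase III transcribes, was the brightest of the set, at 13.34, 13.67 and 13.63 in arrays labelled si-hnRNPK, against 10.75, 11.34 and 11.07 in scramble arrays.

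RNAs of the minor spliceosome, which removes a rare class of introns, were also higher. RNU6ATAC rose by 2.51, RNU4ATAC by 2.43 and RNU11 by 2.09. RNU5A-1 of U5 rose by 2.08, and RNU2-1 of U2, the RNA that pairs with the branch point, rose least, by 0.99. RN7SK, the gene of 7SK RNA, stood at 11.61, 11.65 and 11.78 in arrays labelled si-hnRNPK, against 9.07, 9.17 and 9.09 in scramble arrays, and its second probe rose by 3.18. The member not called, RNU105C, was dim in several arrays and differed by 0.01 (adjusted p = 0.959). The annotation does not class RNU105C as a small nuclear RNA, and the 13 tested genes that it does class so all rose. The 4 U1 probes read gene copies that are almost the same in sequence and cannot count as independent. The amplification kit named in the labels primes on poly(A), which the mature forms of these RNAs lack; which forms gave the signal was not tested, here or for the histones, and the values are probe intensities.

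Not every small RNA behaved alike. Of 10 other RNAs made by RNA polymerase III, 4 rose and 3 fell. RNY4, a Y RNA bound by the Ro protein, rose by 1.37, RNY1 by 0.61 and RPPH1, the RNA of the tRNA-cutting ribonuclease P, by 0.51. VTRNA2-1 fell by 0.49, BCYRN1 by 0.48 and RNY5 by 0.41. RN7SL1, the RNA of the signal recognition particle, was bright in all arrays and differed by 0.24 (adjusted p = 0.089).

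Small nucleolar RNAs were higher as a group. Of 78 tested with C/D boxes, the guides of ribose methylation, 48 rose and 0 fell, with a median of 0.36. The 3 genes of U3, which is needed to cut the precursor of 18S ribosomal RNA, led them. SNORD3A stood at 11.09, 11.37 and 11.42 in arrays labelled si-hnRNPK, against 7.71, 7.68 and 7.68 in scramble arrays, SNORD3D rose by 3.65 and SNORD3C by 3.16. SNORD13, which guides an acetylation of 18S RNA, rose by 2.52 and SNORD43 by 2.01. Without the U3 genes, 45 of 75 rose, with a median of 0.34. SNORD17, among the brightest members not called, differed by 0.02 and SNORD16 by 0.21.

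Of 75 tested RNAs with H/ACA boxes, the guides of pseudouridylation, 51 rose and 0 fell, with a median of 0.45. SNORA12 stood at 7.76, 8.17 and 8.01 in arrays labelled si-hnRNPK, against 5.83, 5.88 and 5.84 in scramble arrays. SNORA80E rose by 1.99, SNORA63 by 1.86 and SNORA61 by 1.64, and SNORA73B rose by 1.52 on its brightest probe and by 1.42 on the second. SNORA59A, the member with the largest negative difference, differed by -0.27 (adjusted p = 0.0561) and was called lower under several other settings. Of 17 tested small Cajal body RNAs, which guide modification of the U RNAs themselves, 10 rose and 0 fell. SCARNA13 rose by 1.01, and SCARNA2 stood at 6.36 in arrays labelled si-hnRNPK, against a dim 5.46 in scramble arrays. With a probe but too dim to be tested were 98 C/D, 26 H/ACA and 7 Cajal body RNAs, and 9, 9 and 8 of those tested were dim in scramble arrays. Among those not dim there, 43 of 69 C/D, 43 of 66 H/ACA and 4 of 9 Cajal body RNAs rose. TERC, the RNA template of telomerase, which also carries an H/ACA box, rose by 1.57.

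Most guide RNAs lie in introns of host genes, and of 26 tested host genes 15 rose and 1 fell, by smaller amounts than the leading guides. SNHG7 rose by 1.20, and by 0.79 on its second probe, SNHG12 by 0.85, SNHG4 by 0.84 and SNHG1 by 0.67. RPL13A, a ribosomal protein gene that hosts several C/D guides, fell by 0.27. SNHG6 and ZFAS1, bright hosts that were not called, differed by 0.05 and 0.16. MicroRNA genes were called less often than the 33.3% of all tested genes. Of 78 with a tested probe, 4 rose and 0 fell, with a median of -0.0175. MIR320A led them with 7.74, 7.73 and 7.89 in arrays labelled si-hnRNPK, against 5.80, 5.52 and 5.65, levels around the dim limit, in scramble arrays.

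Replication-dependent histone genes, which are normally used in S phase, formed the other large group. Of 47 tested, 42 rose and 0 fell, with a median of 0.71. H3C13 stood at 7.88, 7.87 and 8.01 in arrays labelled si-hnRNPK, against 6.20, 6.27 and 6.24 in scramble arrays, a difference of 1.68 ± 0.11 (SE, adjusted p = 4.82e-12), and its second probe rose by 1.32. H2BC5 stood at 10.19, 10.29 and 10.27 in arrays labelled si-hnRNPK, against 8.95, 9.01 and 8.84 in scramble arrays. Of 70 genes of this list with a probe, 23 were too dim to be tested, and 9 of the 47 tested were dim in scramble arrays, so that they could pass the filter only through brighter arrays. H4C1 was one of them, at 6.99 in arrays labelled si-hnRNPK and a dim 5.49 in scramble arrays, and H3C1 another, at 7.02 and a dim 5.67. Among the 38 that were not dim in scramble arrays, 33 rose and 0 fell. By class these were 9 of 9 H4 genes, 6 of 7 H3 genes, 9 of 9 H2A genes, 8 of 11 H2B genes and 1 of 2 H1 genes. H2BC21, a member that was not called, differed by -0.10 (adjusted p = 0.491).

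Replication-independent histone genes, which make polyadenylated RNA in all phases of the cell cycle, did not follow. Of 9 tested, 0 rose and 4 fell. H3-3A, which encodes the variant H3.3, averaged 12.97 ± 0.04 in arrays labelled si-hnRNPK and 14.05 ± 0.09 in scramble arrays (SD, n = 3 each), and its second probe fell by 1.04. H2AZ2 fell by 0.78, H2AJ by 0.40 and H3-3B by 0.38. H2AZ1 differed by -0.04 and MACROH2A1 by 0.17, and neither was called.

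Promoters of 44 of the 47 histone genes were in the RefSeq promoter table of GRCh38.p14, and a window of 250 bases before the start was searched on both strands. The octamer ATTTGCAT, which the factor OCT1 binds in H2B promoters, was found in 9 of 11 H2B and 7 of 12 H2A promoters, and in 1.66% of all 27305 promoters. The windows below show the 150 bases before the start of 3 H2B genes, with the octamer in capitals, to let the motif be seen in its place. Among H2B genes called higher with a match inside these 150 bases, they had the smallest p. These genes were picked by that match. The gene strand is shown, at chr6:26199366-26199515 (plus strand) for H2BC7, chr6:26216689-26216838 (minus strand) for H2BC8 and chr6:27132796-27132945 (minus strand) for H2BC11.
H2BC7: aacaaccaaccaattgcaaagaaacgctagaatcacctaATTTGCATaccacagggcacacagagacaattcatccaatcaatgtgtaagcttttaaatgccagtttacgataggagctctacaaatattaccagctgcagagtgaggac
H2BC8: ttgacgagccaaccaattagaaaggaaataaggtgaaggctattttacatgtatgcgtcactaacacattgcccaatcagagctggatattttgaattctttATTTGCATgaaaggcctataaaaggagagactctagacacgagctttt
H2BC11: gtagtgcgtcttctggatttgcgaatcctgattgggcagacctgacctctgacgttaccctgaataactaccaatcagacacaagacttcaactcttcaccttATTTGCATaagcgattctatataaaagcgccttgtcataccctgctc
H2BC7 rose by 0.95, H2BC8 by 1.02 and H2BC11 by 0.86. H4 promoters held no octamer in the 9 windows searched, which says only that these letters were not there. A match is a description of sequence and no evidence of binding in these cells.

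Factors that make and trim these RNAs moved less than the RNAs did. Of 35 tested genes of histone and snRNA 3′ end processing, 8 rose and 3 fell, with a median of -0.0040. The share called, 31.4%, was near the 33.3% of all tested genes. The Integrator subunits INTS10 and INTS13 rose by 0.78 and 0.72, and ZNF473, a zinc finger protein of the U7 complex, by 0.69. INTS2 fell by 0.87 and PCF11, a cleavage and termination factor, by 0.60. SLBP, which binds the histone stem-loop, differed by -0.18 (adjusted p = 0.168), and its second probe fell by 0.36. Of 31 transcription factors of U RNA genes and subunits of RNA polymerase III, 10 rose and 0 fell. BRF2, the initiation factor of U6-type promoters, rose by 1.01, POLR3G by 0.93 and GTF3A by 0.74.

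Of 23 genes of the nuclear exosome and its cofactors, which degrade and trim such RNAs from the 3′ end, 9 rose and 1 fell. TENT4A rose by 0.70 and EXOSC7 by 0.44, and TOE1, an exonuclease that trims U RNAs, fell by 0.52. EXOSC10, the nuclear nuclease itself, differed by -0.20 (adjusted p = 0.12). Among 44 Sm, LSm and assembly proteins, 8 rose and 5 fell, shares close to or below those of all genes. Of 29 hnRNP genes, 3 rose and 6 fell. PTBP2, the neural paralog of the splicing repressor PTBP1, fell by 1.34, and by 1.45 on its second probe. PTBP1 rose by 0.32 and PCBP2, a close relative of hnRNP K, by 0.47. HNRNPU fell by 0.89 on its brightest probe, but its second probe differed by 0.17.

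**Figure D2:**
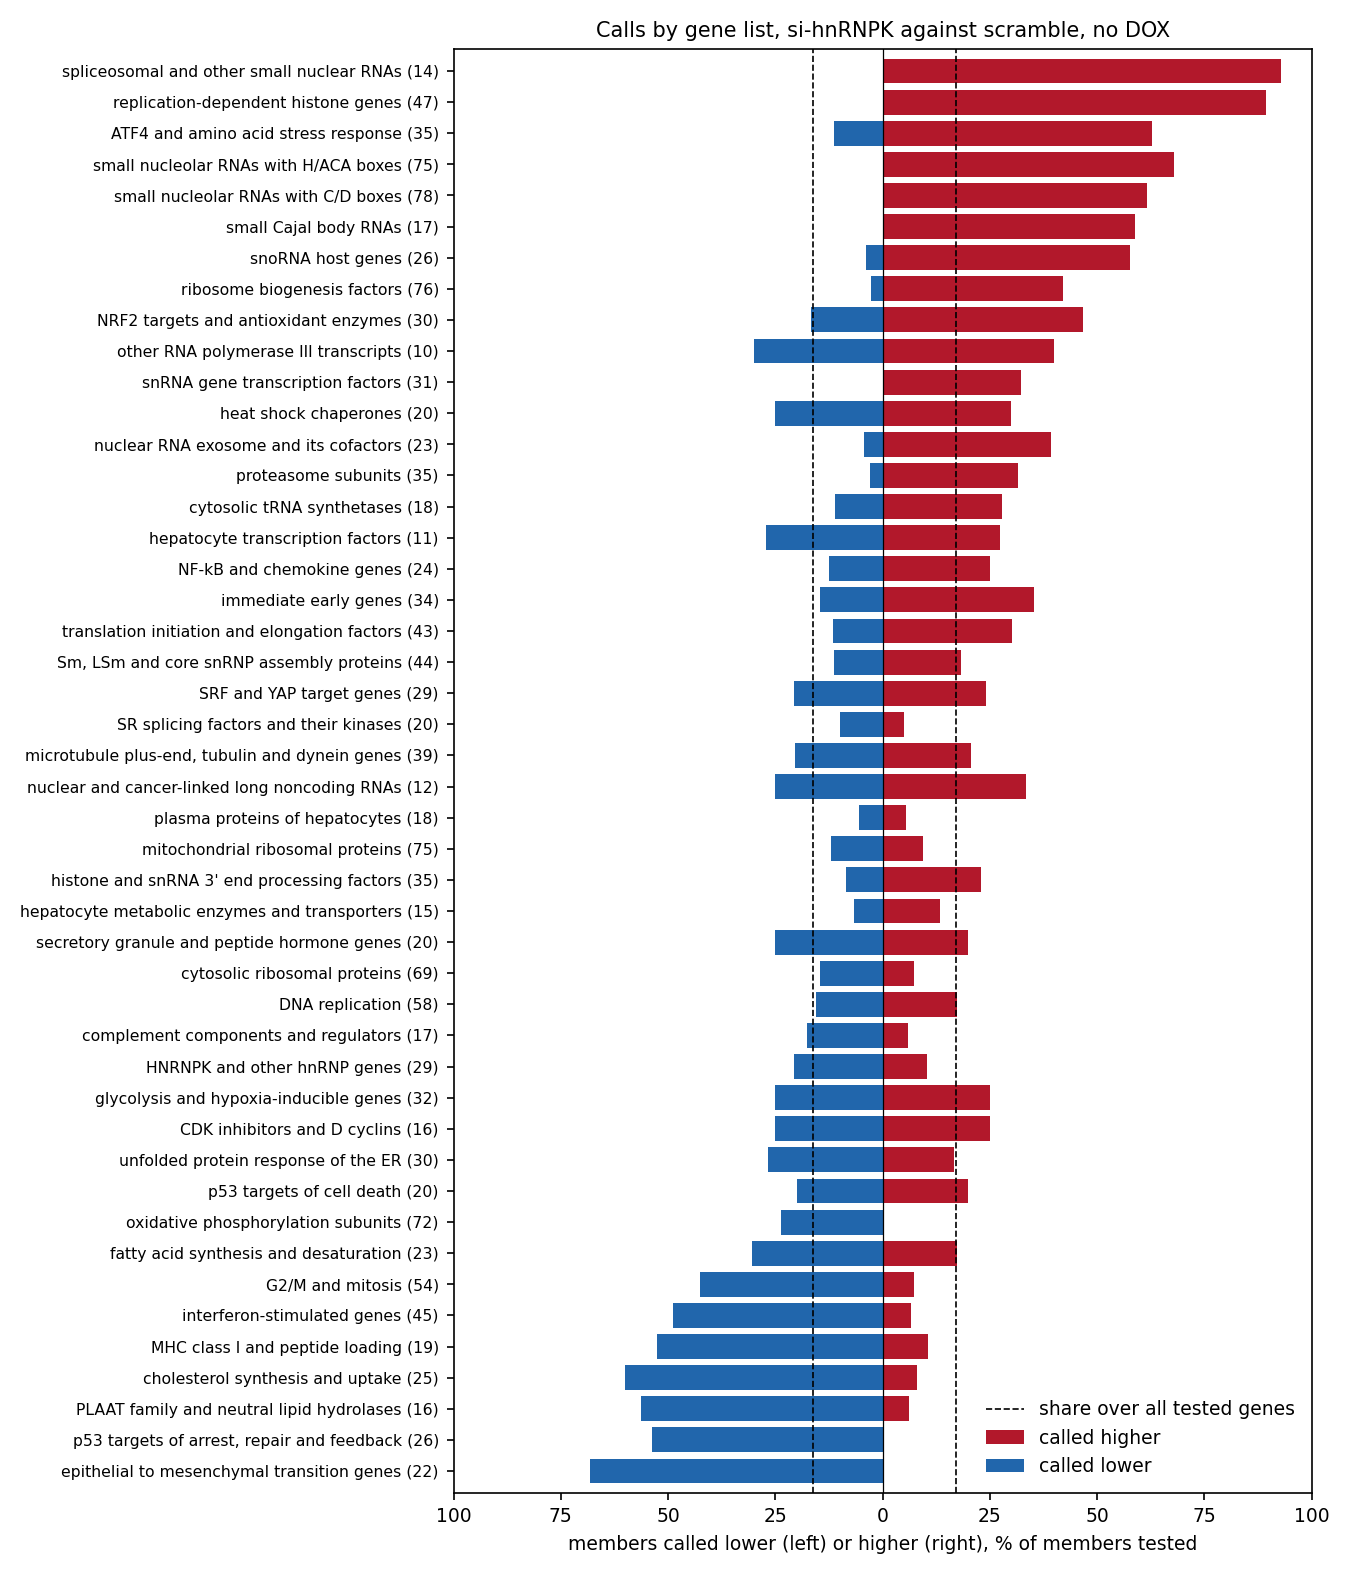
Bars give the percentage of tested members of each gene list (number tested in brackets) called higher to the right and lower to the left in si-hnRNPK against scramble arrays without DOX, for lists of 10 or more tested genes, ordered by median difference. Dashed lines mark the shares over all tested genes, 17.0% higher and 16.2% lower; small nuclear RNAs and histone genes stand at the top and genes of the epithelial to mesenchymal transition at the bottom.

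Among protein-coding genes the largest rise was that of CGA, which encodes the alpha subunit shared by the pituitary and placental glycoprotein hormones. It stood at 9.75, 9.71 and 9.76 in arrays labelled si-hnRNPK, against 5.92 to 6.09 in the 3 scramble arrays, a difference of 3.74 ± 0.10 (SE, adjusted p = 2.88e-20). SCG2, a secretory granule protein, stood at 8.62, 8.59 and 8.60 in arrays labelled si-hnRNPK, against the dim levels of 5.65, 5.51 and 5.71 in scramble arrays. INSL4, a placental peptide of the insulin family, rose by 1.91. Of 12 neuroendocrine markers with a probe, 9 were dim and 0 of the 3 tested were called. SNAP25, the brightest, differed by 0.30, and of the dim ones SYP differed by 0.49, PRL by 0.39 and CHGA by 0.0043. Their summed intensity was 9.41 to 9.45 log2 units in arrays labelled si-hnRNPK, against 9.24 to 9.35 in scramble arrays, and its part in the results was not tested. Over 20 tested genes of secretory granules and peptide hormones, 4 rose and 5 fell, VGF rising by 0.76 and NTS falling by 0.55.

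The CGA promoter holds the palindrome TGACGTCA, the cyclic AMP response element known from this gene, which 1.77% of all promoters hold. It is shown for that repeat, with both copies in capitals, as the 150 bases before the start on the gene strand at chr6:87095107-87095256 (minus strand).
CGA: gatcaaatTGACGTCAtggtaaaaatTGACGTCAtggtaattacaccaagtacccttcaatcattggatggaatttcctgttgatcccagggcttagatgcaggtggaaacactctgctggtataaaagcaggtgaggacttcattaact
Among genes called higher, 3.77% of 1644 promoters held the element, and among tested genes not called 2.89% of 6576.

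The other leading rises named enzymes, ligands and surface proteins. CTH, which makes cysteine from cystathionine, stood at 10.88, 10.86 and 10.96 in arrays labelled si-hnRNPK, against 8.34, 8.27 and 8.18 in scramble arrays, and its second probe rose by 2.43. BMP2, a secreted ligand of the TGF-beta family, stood at 12.19, 12.26 and 12.11 in arrays labelled si-hnRNPK, against 9.70, 9.70 and 9.79 in scramble arrays. The groups were well separated for both. LAMA1, a laminin chain of basement membranes, rose by 2.22 and DNER, a transmembrane protein with EGF repeats, by 2.03. RGS2, which switches off G protein signals, rose by 1.90, OPN3, a light-sensing receptor family member, by 1.93 and TM4SF1, a membrane protein of the tetraspanin-like L6 family, by 1.88. RIMBP3 rose by 1.78.

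ALB, the major plasma protein of hepatocytes, was also among them, at 8.39, 8.69 and 8.73 in arrays labelled si-hnRNPK, against 6.49, 6.53 and 6.40 in scramble arrays. It was the exception in its list, since of 18 tested plasma protein genes 1 rose and 1 fell. Of 15 tested hepatocyte enzymes and transporters, 2 rose and 1 fell, with ABCC2, an export pump of the bile canaliculus, higher by 0.74. Summed over 18 markers, hepatocyte intensity lay at 10.20 to 10.33 in arrays labelled si-hnRNPK, against 9.85 to 9.90 in scramble arrays, a sum that contains ALB.

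The largest falls were those of C1QTNF1, IFIT2 and MAPRE1. C1QTNF1, a secreted protein related to complement C1q, stood at 6.74, 6.87 and 6.83 in arrays labelled si-hnRNPK, against 9.24, 9.25 and 9.21 in scramble arrays, while its second probe differed by -0.14 and its dimmest fell by 0.62. MAPRE1, which encodes EB1, the protein that tracks growing microtubule ends, stood at 8.82, 8.76 and 8.63 in arrays labelled si-hnRNPK, against 11.16, 10.93 and 11.20 in scramble arrays. It was measured on 1 bright probe. TACC1, a centrosomal protein, fell by 2.00, and by 0.47 on its second probe. Over 39 tested genes of microtubule ends, tubulins and dynein, 8 rose and 8 fell, so MAPRE1 and TACC1 were not part of a common direction there.

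Falls that both probes showed were those of AHNAK2, a giant scaffold protein, by 2.11 and 1.66, NCEH1, a hydrolase of cholesterol esters, by 1.94 and 1.51, CMAS, which activates sialic acid, by 1.89 and 1.67, and GNG10, a G protein subunit, by 1.83 and 1.22. ALDH3A2, which oxidises fatty aldehydes, fell by 1.65 and 1.81, CXXC5, a zinc finger protein, by 1.64 and 1.69, and ARPP19, a mitotic inhibitor of the phosphatase PP2A, by 1.59 and 2.15. CD70, a ligand of the TNF family, stood at 10.47, 10.59 and 10.37 in arrays labelled si-hnRNPK, against 12.38, 12.45 and 12.36 in scramble arrays. ARL6IP5 fell by 1.93, the lysosomal receptor SCARB2 by 1.86 and CDA, cytidine deaminase, by 1.84, each on 1 probe above the dim limit. PLAAT4, an acyltransferase of phospholipids that retinoids induce, stood at 6.13, 6.13 and 6.18 in arrays labelled si-hnRNPK, against 8.26, 8.24 and 8.30 in scramble arrays. Of 16 tested genes of its family and of neutral lipid hydrolases, 9 fell and 1 rose, with PLAAT3 lower by 0.51 and MGLL, the monoglyceride lipase, by 0.68.

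**Figure D3:**
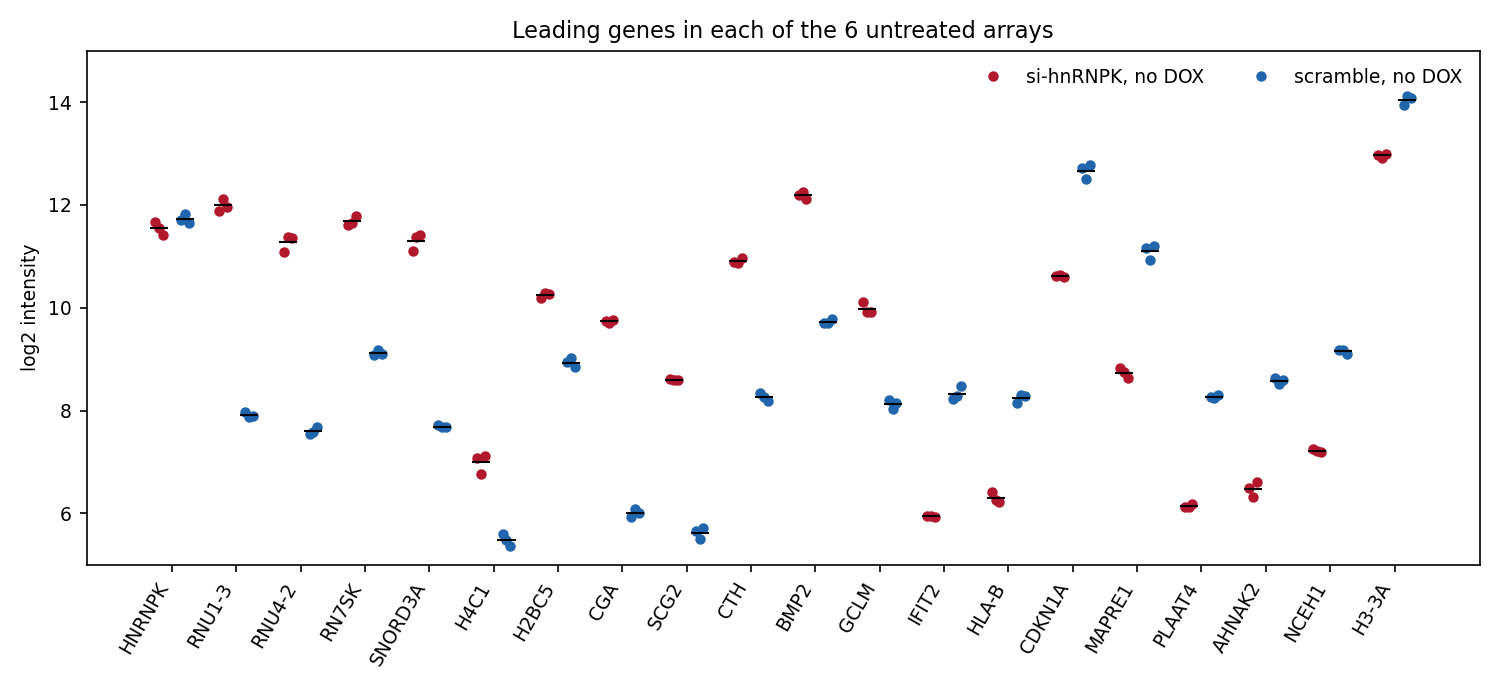
Log2 intensity of 20 genes described in the text in each of the 3 arrays labelled si-hnRNPK (red, left of each pair) and 3 scramble arrays (blue, right) without DOX, with a bar at each group mean. The groups overlap for HNRNPK and are apart for the other 19 genes.

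Interferon-stimulated genes were lower. These genes answer the interferon receptors, and many of their products act against viruses. Of 45 tested, 22 fell and 3 rose, with a median of -0.25. IFIT2, which binds viral RNA, stood at 5.95, 5.95 and 5.93 in arrays labelled si-hnRNPK, against 8.23, 8.28 and 8.47 in scramble arrays, a difference of -2.38 ± 0.10 (SE, adjusted p = 1.91e-16). IFITM1, a membrane restriction factor, fell by 1.76, ISG15, a ubiquitin-like modifier, by 1.70 and IRF9, a transcription factor of this response, by 1.62. IFIT1 fell by 1.76 on its brightest probe, and its second probe differed by -0.07. MX1, a classical member of the same response, went the other way, at 7.40, 7.40 and 7.47 in arrays labelled si-hnRNPK, against 6.17, 6.10 and 6.03 in scramble arrays. USP18 rose by 0.56 and DDX60L by 0.30. EIF2AK2 and ADAR, bright members, differed by -0.02 and -0.06 and were not called.

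Promoters of these genes carry interferon response elements, and the letters TTTCNNTTTC on either strand were found in 23 of the 40 promoters of the list that the table holds, against 3.07% of all promoters. Of the 19 with a promoter that fell, 13 held a match. Over all tested genes, 2.75% of 1673 promoters of genes called lower held it, and 2.34% of 6576 of genes not called. The 3 with the smallest p among those are shown in the same window, on the gene strand, with matches in capitals, to set the element beside the lowered genes. They lie at chr11:313890-314039 (IFITM1), chr10:89392473-89392622 (IFIT1) and chr1:1013347-1013496 (ISG15), all on the plus strand, and those of IFITM1 and ISG15 read on the opposite strand; the 2 matches of ISG15 overlap.
IFITM1: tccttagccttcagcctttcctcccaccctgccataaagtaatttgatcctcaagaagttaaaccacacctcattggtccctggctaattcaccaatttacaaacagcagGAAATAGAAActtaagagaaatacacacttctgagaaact
IFIT1: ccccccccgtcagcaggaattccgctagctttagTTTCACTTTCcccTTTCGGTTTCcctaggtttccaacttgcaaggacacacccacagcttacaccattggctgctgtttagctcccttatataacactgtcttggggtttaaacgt
ISG15: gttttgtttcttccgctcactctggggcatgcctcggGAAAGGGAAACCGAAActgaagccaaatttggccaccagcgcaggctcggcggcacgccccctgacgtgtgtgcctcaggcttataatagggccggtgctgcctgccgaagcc

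MHC class I genes, which display peptides to T cells, were lower as well. Of 19 tested genes of this group and of peptide loading, 10 fell and 2 rose, with a median of -0.27. HLA-B stood at 6.41, 6.25 and 6.23 in arrays labelled si-hnRNPK, against 8.15, 8.29 and 8.28 in scramble arrays. HLA-H, annotated as a transcribed pseudogene, fell by 1.45 and HLA-E fell by 0.90. B2M, the invariant light chain, fell by 0.82, and by 0.96 on its second probe. HLA-F fell by 1.33 while its second probe differed by 0.07, and HLA genes are alike enough that probes may cross. The chaperone CANX rose by 0.43 and the peptide pump subunit TAP2 by 0.29.

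Inflammatory genes did not share 1 direction. Of 24 tested NF-kB and chemokine genes, 6 rose and 3 fell. CXCL8, a neutrophil chemokine, stood at 8.56, 8.85 and 8.87 in arrays labelled si-hnRNPK, against 6.97, 6.82 and 6.64 in scramble arrays, and its second probe rose by 0.77. IL6 rose by 1.32, while CCL2, a monocyte chemokine, fell by 1.32. JUN, an AP-1 subunit, stood 1.56 higher and MYC 0.62 higher, with JUNB lower by 0.89. Of 34 tested immediate early genes 12 rose and 5 fell, and the bright members FOS and DUSP1 differed by -0.10 and -0.02. Among 7 called members with a second probe above the dim limit, 4 kept the sign on it, against 91.0% over all such called genes.

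Targets of p53 in cell cycle arrest, repair and feedback were lower. Of 26 tested, 14 fell and 0 rose, with a median of -0.35. CCNG1, cyclin G1, stood at 8.79, 9.12 and 9.01 in arrays labelled si-hnRNPK, against 10.60, 10.51 and 10.51 in scramble arrays. DDB2, a sensor of UV lesions, fell by 1.26, SESN1, a stress-induced inhibitor of mTOR signalling, by 1.09, RPS27L by 0.90 and PHLDA3 by 0.90. CDKN1A, which encodes the CDK inhibitor p21, stood at 10.62, 10.64 and 10.60 in arrays labelled si-hnRNPK, against 12.73, 12.50 and 12.78 in scramble arrays. Its second probe went the opposite way, by 1.16 (adjusted p over all probes = 2.79e-11), so the direction of CDKN1A depends on the probe. ZMAT3 differed by 0.02 on its brightest probe and by -1.43 on the second. Of 20 tested death targets 4 rose and 4 fell, TNFRSF10A rising by 0.56 and TP53I3 falling by 0.58.

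Genes of G2 and mitosis were modestly lower. Of 54 tested, 23 fell and 4 rose, with a median of -0.22. PBK, a mitotic kinase, fell by 0.87, KIF14, a kinesin of cytokinesis, by 0.69 and TOP2A, the topoisomerase that DOX poisons, by 0.64. CDC25A, a phosphatase that activates CDKs, rose by 0.87, and by 0.63 on its second probe. DNA replication genes went both ways, with 10 of 58 higher and 9 lower. RFC5, a clamp loader subunit, fell by 1.08 and LIG1, the replicative ligase, by 0.91, while GINS4 rose by 0.58. The shares of this replication list were near the background, and its relation to the rise of replication-dependent histone genes was not tested. CDK6, the partner of D cyclins, rose by 1.22.

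The amino acid stress response is the set of genes that ATF4 activates when amino acids run short, and it was higher. Of 35 tested, 22 rose and 4 fell, with a median of 0.52. ATF4 itself rose by 0.75. Besides CTH, ASNS, asparagine synthetase, stood at 11.06, 11.01 and 11.10 in arrays labelled si-hnRNPK, against 9.74, 9.53 and 9.92 in scramble arrays. SLC7A1, a transporter of cationic amino acids, rose by 1.19, STC2 by 1.17, PCK2 by 1.03 and PHGDH, the first enzyme of serine synthesis, by 0.92. DDIT4 fell by 0.63 and SLC38A2, a glutamine transporter, by 0.64. The aminoacyl-tRNA synthetases that often accompany this response were split, with 5 of 18 higher and 2 lower. AARS1 fell by 0.61 and KARS1 rose by 0.64. Of 30 genes of the unfolded protein response 5 rose and 8 fell, HSPA5, the ER chaperone BiP, falling by 0.64.

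Targets of NRF2, the factor of the oxidant response, were higher in 14 of 30 tested and lower in 5. GCLM, a subunit of the enzyme that starts glutathione synthesis, stood at 10.12, 9.91 and 9.92 in arrays labelled si-hnRNPK, against 8.21, 8.04 and 8.15 in scramble arrays, and its second probe rose by 0.93. PIR, pirin, was higher by 1.53 and 1.23 on 2 probes. SRXN1 rose by 0.91, HMOX1, heme oxygenase, by 0.87 and FTL, ferritin light chain, by 0.85. The aldo-keto reductases AKR1C3 and AKR1C2, which NRF2 also controls in human cells, fell by 1.36 and 1.17. CASP9, the initiator caspase of the apoptosome, rose by 1.57, and by 1.35 on its second probe, and MAPK4, an atypical MAP kinase, rose by 1.22 and 1.30.

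Genes of cholesterol synthesis and uptake were lower in 15 of 25 tested and higher in 2, with a median of -0.32. INSIG1, a sterol sensor of the ER, fell by 1.10, and by 0.51 on its second probe. HMGCS1, which makes HMG-CoA, fell by 0.82 and FDPS by 0.74. MSMO1 fell by 0.89 on its brightest probe and by 0.78 on its dimmest, while the other one differed by -0.10. LSS fell by 0.69, and its second probe differed by -0.10. The kinase PMVK rose by 0.45 and NPC1, which lets cholesterol leave lysosomes, by 0.37. Fatty acid genes were split, 4 of 23 higher and 7 lower, with ACSL4 lower by 1.43 on its brightest probe and different by -0.18 on the second. In glycolysis and the hypoxia response 8 of 32 rose and 8 fell. PFKFB3 rose by 1.09 and BNIP3L fell by 1.28.

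Ribosome, proteasome and energy genes mostly showed small differences. Of 76 ribosome biogenesis factors, the proteins that work beside the nucleolar guide RNAs, 32 rose and 2 fell, with a median of 0.21. NPM3 rose by 0.93, NOLC1 by 0.84, HEATR1 by 0.74 and NIP7 by 0.76. NOP10 and NHP2, core proteins of H/ACA particles, differed by -0.13 and 0.05 and were not called. Of 35 proteasome subunits 11 rose and 1 fell, with a highest rise of 0.65 for PSMC3. Of 72 subunits of oxidative phosphorylation 17 fell and 0 rose, UQCRB by 0.80, and the list median was -0.14. Cytosolic ribosomal proteins were called in 5 of 69 upwards and in 10 downwards, none beyond 0.49 in size.

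Genes linked to the epithelial to mesenchymal transition, in which epithelial cells gain contractile and matrix genes, were lower. Of 22 tested, 15 fell and 0 rose, with a median of -0.42. S100A4, a calcium-binding protein of motile cells, averaged 13.39 ± 0.07 in arrays labelled si-hnRNPK and 14.56 ± 0.04 in scramble arrays (SD, n = 3 each), and its second probe fell by 1.34. TGFBR2, a TGF-beta receptor, fell by 1.18, PLAUR, the urokinase receptor, by 0.94 and ACTA2, smooth muscle actin, by 0.85, while ITGB1 fell by 0.62. COL3A1 fell by 1.42 and DCN by 1.58, markers that were also counted in the fibroblast sum above. SNAI2, a transcription factor of the transition, differed by -0.01 and TAGLN by -0.19, and neither was called. Whether the cells moved along this transition, or epithelial genes went another way, was not tested. Among 29 genes that SRF or YAP drive, 7 rose and 6 fell, SRF itself rising by 0.69 and CNN2 falling by 1.0.

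The calls were compared with a second probe where a gene had one above the dim limit, which 3314 genes did. Of 1246 called genes with such a probe, the second probe had the same sign in 91.0%, was itself called in the same direction in 50.6% and was called the opposite way in 1.04%, or 13 genes. Among called genes of at least 2-fold, 91 of 98 kept the sign (92.9%). Across the 3314 genes, which are not independent replicates, the differences on both probes correlated at 0.749. In 592 genes both probes were called the same way with separated groups, 278 higher and 314 lower. The widest disagreement among named genes was that of CDKN1A.

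**Figure D4:**
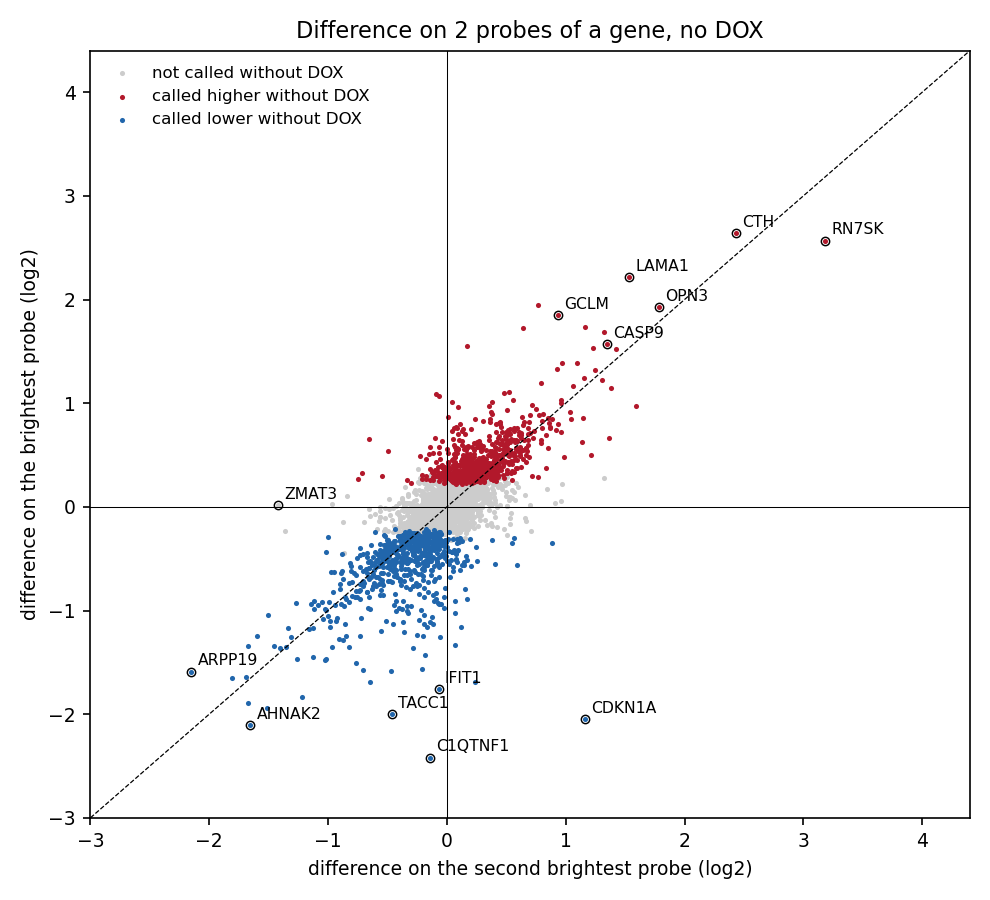
Each point is 1 of 3314 genes with 2 probes above the dim limit, with the difference on the second brightest probe on the horizontal axis and on the brightest probe on the vertical axis (both log2, si-hnRNPK minus scramble without DOX). Most called genes (red and blue) lie in the quadrants of equal sign near the dashed line of equality; CDKN1A lies at -2.05 on its brightest probe and 1.16 on the second.

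The same siRNA labels were also compared in cells given DOX, with group means from 6 other arrays. The calls are not independent of those above, since the spread of each gene was estimated from all arrays of the series together. The choice of probe and the brightness filter also used all of these arrays. With DOX, 4960 genes were called (39.7%), 2473 higher (19.8%) and 2487 lower (19.9%). Of the 2126 genes called higher without DOX, 1539 were higher with DOX, which is 72.4% of the first list and 62.2% of the second. Of the 2027 called lower, 1519 were lower with DOX, 74.9% and 61.1% of the lists, and 31 genes were called in opposite directions. Of the 345 genes called with at least 2-fold difference, 339 were called the same way with DOX. Across the 12483 genes, which are not independent replicates, the differences correlated at 0.840.

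Several of the leading genes had differences of like size in the DOX-treated arrays, while others, described at the end, did not. CGA rose by 3.59 with DOX, SCG2 by 2.91, SNORD3A by 3.83 and RNU4-2 by 3.72, and C1QTNF1 fell by 2.55, IFIT2 by 2.71 and MAPRE1 by 2.06. MX1 rose by 1.5. The brightest probe of CDKN1A fell by 2.13. Of the 47 histone genes, 41 rose with DOX, 40 of them genes that rose without it. The counts of G2 and mitosis genes were different, with 7 lower and 11 higher of 54 with DOX, against 23 lower and 4 higher without, and a median of 0.007 with DOX; 3 were called in opposite directions.

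**Figure D5:**
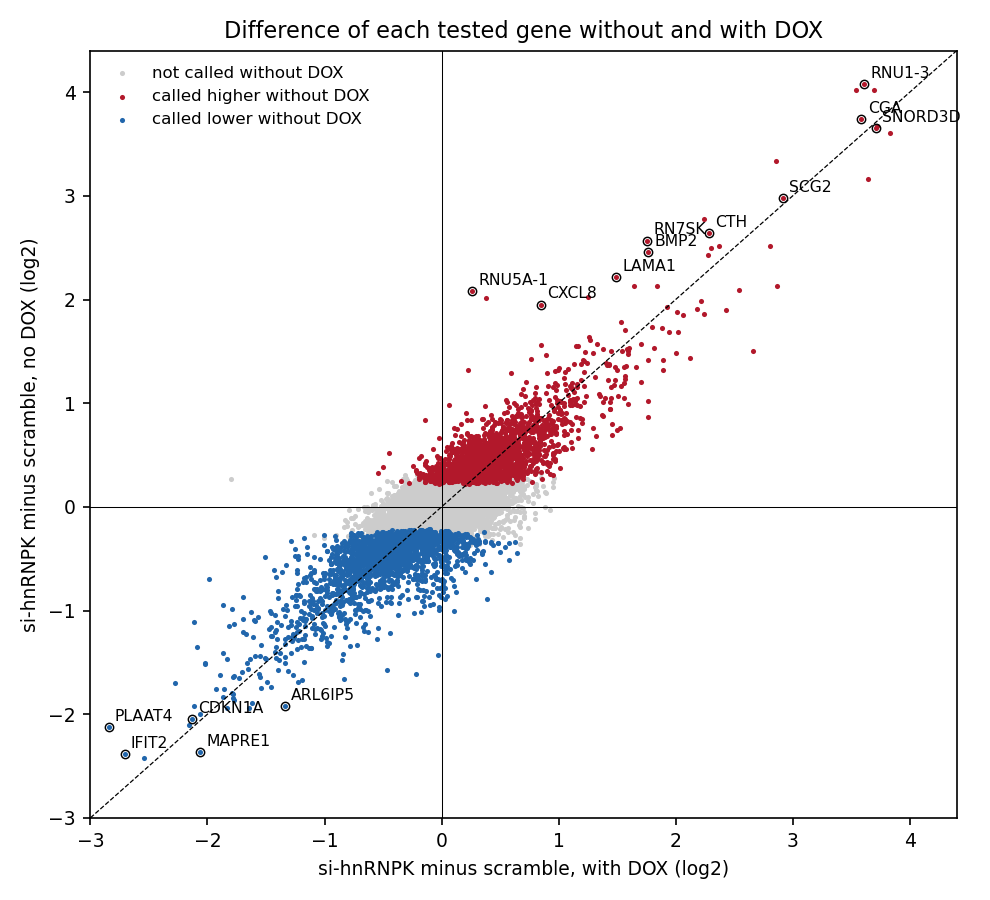
Each point is 1 of 12483 tested genes, with the si-hnRNPK minus scramble difference with DOX on the horizontal axis and without DOX on the vertical axis (both log2), coloured by the call without DOX; the dashed line marks equality. Most called genes lie along the line; RNU5A-1, at 0.26 with DOX and 2.08 without, and CXCL8, at 0.85 with DOX and 1.95 without, lie well above it.

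Tested directly, the siRNA difference depended on DOX in 396 genes (3.17%). RNU5A-1 rose by 0.26 with DOX and by 2.08 without, a change of -1.82 (adjusted p = 1.21e-08), and RNU2-1 differed by 0.06 with DOX and 0.99 without. SNORD43 stood 0.38 higher with DOX and 2.01 higher without. RN7SK, BMP2, LAMA1 and DNER rose less with DOX, with changes of -0.81, -0.69, -0.73 and -0.77, and H2BC5 rose more, with a change of 0.57. CXCL8 rose by 0.85 with DOX and by 1.95 without. IL6 differed by 0.23 with DOX, where it was not called, and rose by 1.32 without. CCNG1 fell by 0.47 with DOX and by 1.57 without, while PLAAT4 fell by 2.84 with DOX and by 2.12 without. The differences of ACSL4 and MSMO1 with DOX were -0.03 and 0.39.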

How the data were processed

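Total RNA of 18 samples was amplified with an Illumina kit and hybridised to single-channel bead arrays, per the labels' protocols. The deposited table holds 43961 probes as log2 intensity, which the authors had quantile normalized, as read from the values: 99.9955% of ranks agreed within 0.01 across arrays. The software, and whether background was corrected, is not given in the sources used here, and no detection p-values were used. Gene names came from the platform annotation supplied, with 29511 probes of 1 gene symbol, 0 of several and 14450 unnamed here, and 29474 matched to RefSeq identifiers of GRCh38.p14.

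Each gene took its brightest probe over 18 arrays, and 7299 genes dimmer on average than the median probe were set aside. A model of 6 group means was fitted with limma 3.58.1 in R 4.3.3 (12 residual and 13.5 prior degrees of freedom), and 3 contrasts were tested two-sided at an adjusted p of 0.05. An exact permutation test of 3 arrays against 3 has 0.1 as its smallest p, so the model gives the tests of single genes, and the number of arrays limits the precision. Probe-level p-values were adjusted over all probes.

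Most genes named were drawn from candidates set by a rule. Not every candidate was named, which was a further choice. The candidates were HNRNPK, the 15 largest rises and 15 largest falls outside the small RNA and histone lists. The 10 largest rises and falls seen on 2 probes were added. From each of 50 lists came up to 6 members of smallest p, 3 called against the majority and 3 bright ones not called. Other genes, namely further U RNAs, AFP, APOA1, APOB, TTR, VIM, CHGA, SYP, PRL, SNAP25, COL1A1, PDGFRB, B2M, ATF4, H2BC7, H2BC8 and H2BC11, were chosen after their values were seen. The members and lists were chosen with earlier results of these data known. Promoters came from the RefSeq table of GRCh38.p14, which held none of the U RNA, 7SK or U3 genes used here.

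On simulated data with real means and spreads of 12483 genes, the fit found 100 of 100 genes given a change of 1 (log2) and 83 of 100 given 0.5. Of its 199 calls, 16 were false. The simulated scatter was normal and independent, and no other gene differed between groups. In the real arrays 33.3% of genes were called, so these rates need not hold there. As alternatives, arrays were scaled by cyclic loess or to a common 75th percentile, the filter was dropped or set at the 70th percentile, and genes were read from all their probes or from the second brightest. The fit was also repeated on the compared arrays only, with array weights, with the replicate number as a block, with a trended and robust prior, and without 1 array at a time. The plots used matplotlib 3.10.9.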

Additional observations from a re-analysis of the deposited data

Results flagged for a closer look

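The 35 genes below were named above and their si-hnRNPK minus scramble difference itself depended on DOX, by the interaction term of the limma fit (adjusted p under 0.05). Each value is the difference with DOX minus that without, on the log2 scale; a negative one means that the difference moved downwards with DOX.

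Among small RNAs the change was -1.82 for RNU5A-1, -0.92 for RNU2-1, -0.48 for RNVU1-7, -0.47 for RNU1-3, -0.81 for RN7SK, -1.63 for SNORD43 and 0.73 for SNORA12, and for the host genes SNHG1 and SNHG12 it was -0.69 and -0.50. The histone genes H2BC5 and H2BC7 had changes of 0.57 and 0.50. TOE1, a nuclease of U RNAs, had 0.55.

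Ligands, receptors and secreted proteins changed by -0.69 (BMP2), -0.73 (LAMA1), -0.77 (DNER), -1.10 (CXCL8), -1.09 (IL6), 0.92 (NTS) and 0.77 (VGF). Of the p53 targets, CCNG1 had 1.10, SESN1 -0.51, TNFRSF10A -0.63 and TP53I3 -0.54. The factors JUN, SRF, SNAI2 and ATF4 had -0.72, -0.58, -0.63 and 0.75.

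MSMO1 changed by 1.27, ACSL4 by 1.40, SLC38A2 by 0.69, PLAAT4 by -0.72, ARL6IP5 by 0.59, PBK by 0.65, ISG15 by -0.57 and HLA-F by 0.60. The cause of these changes was not tested.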

How the results depend on the processing

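The 4153 calls without DOX became 4118 with cyclic loess, 4153 with centring on the 75th percentile, 4028 without a filter, 3942 with a filter at the 70th percentile, 4202 with the mean of probes, 5288 from the compared arrays alone, 4191 with a trended robust prior and 5434 with array weights. Leaving out each array in turn gave 3413 to 3553 calls and an HNRNPK difference of -0.23 to -0.11. Of 6483 genes with more than 1 probe, 3314 had a second brightest probe above the dim limit. These second probes gave 889 calls without DOX, 1045 with DOX and 177 for the dependence on DOX. That dependence had 396 calls, 661 from the compared arrays alone and 798 with array weights; the cause was not tested. HNRNPK was called, at -0.20 (adjusted p = 0.0203), with the mean of its probes.

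With the replicate number of the titles as a block, 4160 genes were called without DOX, 4949 with DOX and 406 for the dependence on DOX, and HNRNPK differed by -0.17 (adjusted p = 0.237). Arrays of equal number did not deviate together, with correlations of -0.09, 0.0015 and -0.07. No pairing by number was thus seen in the values, which cannot show if such arrays were handled together.

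Directions turned on the second probe for CDKN1A (1.16), HLA-F (0.066), HNRNPU (0.17), TP53I3 (0.053) and ZMAT3 (-1.43, and -0.70 with the mean of probes), and the cause was not tested. Calls of DDX60L, H2AJ, RPL13A and TAP2 were lost without 1 array, with adjusted p of at most 0.129. SNORA59A was called lower with cyclic loess (-0.30, adjusted p = 0.0351) and 6 other settings. Medians of 2 of 33 lists changed sign on the second probe, -0.04 for the exosome and -0.09 for heat shock chaperones. The number of arrays limits what smaller differences can show.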
